A study of Mus musculus with 12 samples.

Results

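Proline synthesis and the first steps of branched-chain amino acid breakdown were followed through 7 genes: Pycr1, Aldh18a1, Bcat1, Bcat2, Bckdha, Bckdhb and Dbt. They are 7 of the 53465 genes in the count table, and all 7 passed the filter on low counts. The genes were chosen by function and by earlier results of these data, in which the change of Pycr1 and Bcat1 with nicotinamide riboside had been seen. Their changes with nicotinamide riboside are therefore given as a description with no p-value.

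RNA was sequenced in bulk from mouse hematopoietic stem cells, the bone marrow cells that renew the blood. Long-term stem cells (LT-HSCs) and short-term stem cells (ST-HSCs) were sorted as lineage-negative cells that carried Kit, Sca1 and CD150 and lacked CD48, and only the short-term cells carried CD34. Nicotinamide riboside (NR), a vitamin B3 compound and precursor of the redox cofactor NAD, was present at 1 mM during 2 days of culture and was renewed after 24 h. The 4 groups, with 3 samples each, are NR LT-HSCs, control LT-HSCs, NR ST-HSCs and control ST-HSCs. The medium of all groups was Stemline II, to which SCF (100 ng/ml) and Flt3 (2 ng/ml) were added. Control cells were cultured without NR, and the labels name no strain, age or pooling of mice. They also do not tell whether samples of 1 group are separate mice or cultures. Sample-to-sample spread, which could be technical, is thus all that the p-values measure.

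Cells make proline from glutamate in the mitochondria. Aldh18a1 encodes the enzyme that turns glutamate into pyrroline-5-carboxylate, and Pycr1 encodes a reductase that turns this intermediate into proline while oxidising NADH or NADPH. The branched-chain amino acids leucine, isoleucine and valine first lose their amino group to 2-oxoglutarate, which yields glutamate, in a reversible step run by Bcat1 in the cytosol and Bcat2 in the mitochondria. The branched-chain ketoacid dehydrogenase then commits the ketoacids to breakdown and makes NADH; Bckdha and Bckdhb encode the alpha and beta subunits of its first component, and Dbt encodes its second component. In mice, hematopoietic stem cells are known to depend on dietary valine, and BCAT1 is known from human myeloid leukemia.

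Promoter windows are shown for the 3 genes with the largest differences, from 250 bases before to 50 bases after the RefSeq start site (mouse build GRCm38.p6, minus strand, 5′ to 3′). A pair of motifs was searched on both strands: TGATGNAA, the core of the amino acid response element bound by ATF4 with a C/EBP partner, and CACGTG, the E-box. Capitals mark a match.
Pycr1, chr11:120643699-120643998: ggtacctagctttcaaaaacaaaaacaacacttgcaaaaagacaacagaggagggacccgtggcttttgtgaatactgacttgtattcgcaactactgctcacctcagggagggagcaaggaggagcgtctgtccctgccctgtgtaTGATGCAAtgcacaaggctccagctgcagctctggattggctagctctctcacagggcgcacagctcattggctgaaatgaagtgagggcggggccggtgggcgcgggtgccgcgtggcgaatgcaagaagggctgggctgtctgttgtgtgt
Aldh18a1, chr19:40588414-40588713: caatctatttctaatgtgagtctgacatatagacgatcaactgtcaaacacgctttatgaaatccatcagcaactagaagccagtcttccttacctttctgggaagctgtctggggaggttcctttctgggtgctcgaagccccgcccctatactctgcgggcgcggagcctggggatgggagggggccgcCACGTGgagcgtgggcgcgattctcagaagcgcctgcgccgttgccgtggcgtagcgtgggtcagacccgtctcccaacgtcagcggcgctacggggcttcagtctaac
Bcat1, first start, chr6:145076108-145076407: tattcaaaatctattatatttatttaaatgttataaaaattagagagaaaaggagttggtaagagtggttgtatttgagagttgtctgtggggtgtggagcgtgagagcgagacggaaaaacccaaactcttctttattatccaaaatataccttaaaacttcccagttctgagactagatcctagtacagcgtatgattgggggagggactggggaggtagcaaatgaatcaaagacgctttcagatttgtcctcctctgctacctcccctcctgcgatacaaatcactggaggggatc
Bcat1, second start, chr6:145048763-145049062: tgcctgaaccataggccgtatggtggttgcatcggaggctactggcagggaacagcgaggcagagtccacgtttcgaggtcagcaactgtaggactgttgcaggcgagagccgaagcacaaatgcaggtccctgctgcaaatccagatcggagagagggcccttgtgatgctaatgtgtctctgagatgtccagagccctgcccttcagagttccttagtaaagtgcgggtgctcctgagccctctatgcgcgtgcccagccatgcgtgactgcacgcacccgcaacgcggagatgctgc
The Pycr1 window held 1 TGATGNAA match, written TGATGCAA, beginning 103 bases before the start site. The Aldh18a1 window held 1 CACGTG, beginning 59 bases before the start site. Neither Bcat1 window held either motif. The windows of Bcat2, Bckdha and Bckdhb, which were also read, held 0 matches, so 6 of the 7 genes had a window. For comparison, TGATGNAA was in 3.97% of all 32851 windows and CACGTG in 7.15%. A match describes these letters only, and no binding was measured.

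The libraries held between 24589718 and 35456821 reads counted in genes, and levels are given as CPM, read counts scaled to a common library size that was adjusted by trimmed mean of M values (TMM) factors. Reads that HTSeq placed in no annotated feature, called no-feature reads below, made up 28.5% in NR LT-HSC sample 3 and 26.2% in NR ST-HSC sample 3. They made up 8.69% to 17.0% in the other 10 libraries. Results were also computed without the 2 richest. The counts do not tell whether such reads lay in introns or between genes. Of the 5 sort marker genes, Cd34 averaged 242 CPM in NR LT-HSCs and 704 CPM in NR ST-HSCs. In control culture it averaged 259 CPM in LT-HSCs and 627 CPM in ST-HSCs. Cd34 transcripts were thus lower in LT-HSCs but not absent. Ly6a, the gene of Sca1, averaged 37.6 CPM in control LT-HSCs and 6.24 CPM in control ST-HSCs. Slamf1, the gene of CD150, averaged 39.0 and 18.9 CPM in these groups, and Cd48 0.831 and 5.07 CPM. These transcripts thus also differed between cell types, although both were sorted alike for the proteins. Kit differed little, at 1446 and 1378 CPM. With NR, Slamf1 in ST-HSCs fell to 12.1 CPM (edgeR adjusted p = 0.00627). Sums of genes listed as markers of other cells differed between NR and control for some lists. The summed level of 5 megakaryocyte genes was 1783 to 2417 CPM in NR LT-HSCs, against 2961 to 3384 CPM in control LT-HSCs, and 1637 to 2151 CPM in NR ST-HSCs, against 2902 to 3188 CPM in control ST-HSCs. The sum of 5 erythroid genes was 66.6 to 75.9 CPM in NR LT-HSCs, against 91.5 to 97.2 CPM in control LT-HSCs, and 33.3 to 39.5 CPM in NR ST-HSCs, against 49.9 to 60.2 CPM in control ST-HSCs. The sum of 5 monocyte and macrophage genes was 328 to 424 CPM in NR LT-HSCs, against 316 to 351 CPM in control LT-HSCs, and 348 to 423 CPM in NR ST-HSCs, against 269 to 284 CPM in control ST-HSCs. The monocyte and macrophage sums overlapped in LT-HSCs and were mostly Lyz2. Lyz2 averaged 352 CPM in NR and 321 CPM in control LT-HSCs, and 353 and 268 CPM in ST-HSCs. Genes within a list did not all move alike. In ST-HSCs Epor averaged 18.5 CPM with NR and 38.0 CPM in control culture, while Hbb-bt averaged 10.4 and 9.45 CPM. In LT-HSCs Klf1 averaged 4.78 and 4.23 CPM, against 25.0 and 40.9 CPM for Epor. Sums of myeloid, mast cell and lymphoid genes overlapped between NR and control in both cell types. Vwf, of the megakaryocyte list, averaged 650 CPM in control LT-HSCs and 292 CPM in control ST-HSCs (edgeR adjusted p = 0.000931). Whether transcripts of these lists came from other cells or from the stem cells themselves was not tested. No gene of these lists was at 0 across a group, and their part in the results below was not tested. In bulk RNA, fewer cells of a type and less RNA per cell cannot be told apart.

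**Figure D1:**
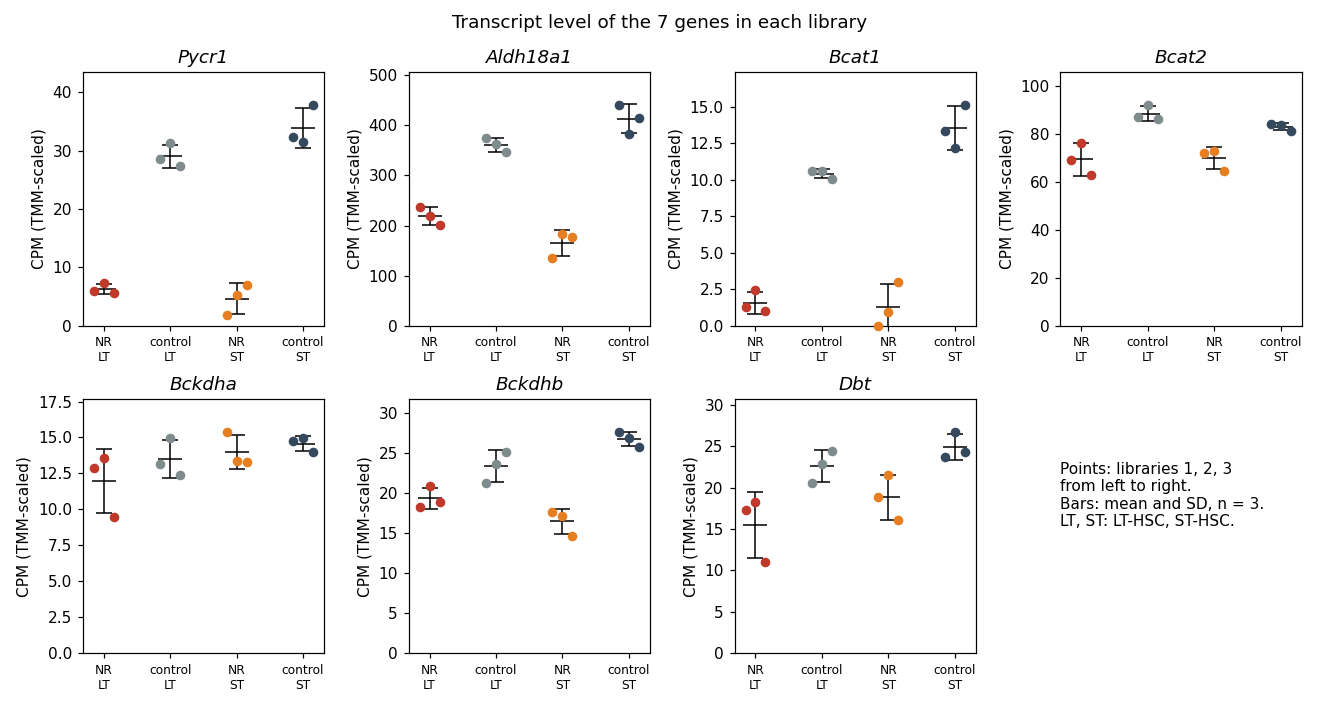
TMM-scaled CPM of the 7 genes in each library (points, samples 1 to 3 from left to right) with the mean and SD of each group (bars, n = 3). NR libraries lie below every control library of the same cell type for 6 genes, and the Bckdha groups overlap.

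With NR, Pycr1 and the cytosolic aminotransferase gene Bcat1 stood far below their control levels in both cell types. Aldh18a1 was also lower, with log2 differences of -0.72 ± 0.10 (SE) in LT-HSCs and -1.32 ± 0.10 in ST-HSCs. The mitochondrial aminotransferase and the dehydrogenase subunits differed by less, but Dbt in LT-HSCs (-0.54 ± 0.17) was near Aldh18a1. Per kilobase of exon, the Aldh18a1 level was the highest of these genes in every group, with 53.9 CPM per kilobase in NR LT-HSCs and 88.8 in control LT-HSCs, and 40.7 in NR ST-HSCs and 101 in control ST-HSCs. The Bcat2 level came next, with 17.8 CPM per kilobase in NR LT-HSCs and 22.7 in control LT-HSCs, and 17.9 in NR ST-HSCs and 21.3 in control ST-HSCs. The Bckdhb level followed, with 10.7 CPM per kilobase in NR LT-HSCs and 12.9 in control LT-HSCs, and 9.09 in NR ST-HSCs and 14.8 in control ST-HSCs. Pycr1 and Dbt changed places: Dbt was above Pycr1 with NR and below it in control cells. The Pycr1 level was 1.61 CPM per kilobase in NR LT-HSCs and 7.39 in control LT-HSCs, and 1.19 in NR ST-HSCs and 8.60 in control ST-HSCs. The Dbt level was 4.63 CPM per kilobase in NR LT-HSCs and 6.76 in control LT-HSCs, and 5.62 in NR ST-HSCs and 7.44 in control ST-HSCs; libraries of these 2 neighbours overlapped in control LT-HSCs. Bcat1 was the lowest in every group, with 0.169 CPM per kilobase in NR LT-HSCs and 1.12 in control LT-HSCs, and 0.141 in NR ST-HSCs and 1.45 in control ST-HSCs. Bckdha has no place in this order, because 61.7% of its exon bases overlap the gene B3gnt8 on the opposite strand and no source used here states whether the counting used strand.

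Pycr1 (ENSMUSG00000025140, chromosome 11) had 6.03, 7.31 and 5.62 CPM in NR LT-HSCs, against 28.5, 31.2 and 27.4 CPM in control LT-HSCs. It had 1.77, 5.34 and 6.91 CPM in NR ST-HSCs, against 32.3, 31.4 and 37.8 CPM in control ST-HSCs. Every NR library was therefore below every control library, and NR ST-HSC sample 1 was the lowest of all 12. The log2 difference, NR over control, was -2.20 ± 0.31 (SE) in LT-HSCs and -2.87 ± 0.32 in ST-HSCs. The spread within NR ST-HSCs was wide, with a highest level 3.91 times the lowest.

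Aldh18a1 (ENSMUSG00000025007, chromosome 19) had 238, 219 and 201 CPM in NR LT-HSCs, against 375, 363 and 347 CPM in control LT-HSCs. It had 136, 184 and 177 CPM in NR ST-HSCs, against 441, 383 and 415 CPM in control ST-HSCs. The groups did not overlap in either cell type, and NR ST-HSC sample 1 was again the lowest library. Its log2 difference was -0.72 ± 0.10 in LT-HSCs and -1.32 ± 0.10 in ST-HSCs. Pycr1 thus differed more than Aldh18a1, which stands before it in the pathway. Per exon base, the ratio of Pycr1 to Aldh18a1 was 0.0299 ± 0.0042 (SD, n = 3) in NR LT-HSCs and 0.0832 ± 0.0053 in control LT-HSCs, and it was 0.0280 ± 0.0136 in NR ST-HSCs and 0.0850 ± 0.0092 in control ST-HSCs.

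Bcat1 (ENSMUSG00000030268, chromosome 6) had 1.29, 2.44 and 0.999 CPM in NR LT-HSCs, against 10.6, 10.6 and 10.1 CPM in control LT-HSCs. It had 0, 0.942 and 3.01 CPM in NR ST-HSCs, against 13.3, 12.2 and 15.1 CPM in control ST-HSCs. All 6 NR libraries lay below all 6 control libraries. The NR levels rest on few reads: 44, 71 and 27 counts in NR LT-HSCs and 0, 30 and 87 counts in NR ST-HSCs. A count of 0 in NR ST-HSC sample 1 allows a level of up to 0.0828 CPM (3 counts, counting error only). The log2 difference was -2.72 ± 0.69 in LT-HSCs and -3.41 ± 0.71 in ST-HSCs, and limma-voom gave -5.13 in ST-HSCs. In the edgeR fit the ST-HSC value was -4.84 without NR ST-HSC sample 3 and -2.79 without NR ST-HSC sample 1, so its size depends on the method and on single libraries.

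Bcat2 (ENSMUSG00000030826, chromosome 7) had 69.3, 76.5 and 62.9 CPM in NR LT-HSCs, against 87.2, 92.2 and 86.4 CPM in control LT-HSCs. It had 72.3, 72.9 and 64.6 CPM in NR ST-HSCs, against 84.2, 83.9 and 81.3 CPM in control ST-HSCs. Its groups were apart in both cell types, but the log2 difference was -0.35 ± 0.08 in LT-HSCs and -0.25 ± 0.08 in ST-HSCs. Without NR ST-HSC sample 3 the ST-HSC value was -0.12. The 2 aminotransferase genes therefore differed by unequal amounts. The ratio of Bcat1 to Bcat2 per exon base was 0.00926 ± 0.00357 in NR LT-HSCs and 0.0493 ± 0.0015 in control LT-HSCs, and it was 0.00829 ± 0.0100 in NR ST-HSCs and 0.0683 ± 0.0088 in control ST-HSCs (SD, n = 3). Of the exon bases of Bcat2, 15.9% overlap 0610005C13Rik on the opposite strand, which averaged at most 1.31 CPM in a group.

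**Figure D2:**
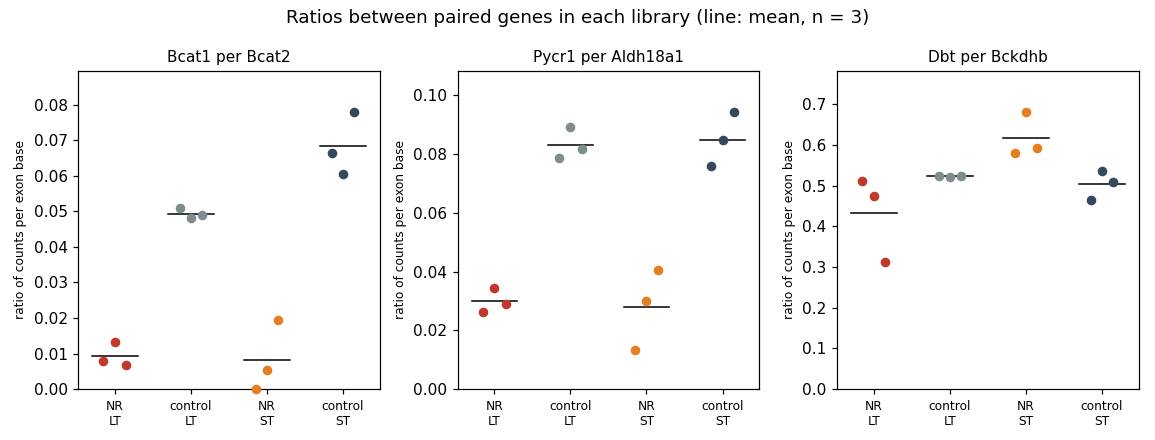
Ratio of counts per exon base between genes of neighbouring steps or of the same complex, in each library (points) with the group mean (line, n = 3). The ratios of Bcat1 to Bcat2 and of Pycr1 to Aldh18a1 were lower in every NR library than in every control library of the same cell type, and the ratio of Dbt to Bckdhb was lower with NR in LT-HSCs and higher with NR in ST-HSCs.

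The 3 dehydrogenase subunit genes did not move as one. Bckdhb (ENSMUSG00000032263, chromosome 9) had 18.3, 20.8 and 18.9 CPM in NR LT-HSCs, against 21.2, 23.6 and 25.1 CPM in control LT-HSCs. It had 17.5, 17.1 and 14.6 CPM in NR ST-HSCs, against 27.6, 26.8 and 25.7 CPM in control ST-HSCs. The groups were close in LT-HSCs, where the highest NR library and the lowest control library were neighbours, and far apart in ST-HSCs. Its log2 difference was -0.27 ± 0.10 in LT-HSCs and -0.70 ± 0.10 in ST-HSCs.

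Dbt (ENSMUSG00000000340, chromosome 3) had 17.3, 18.3 and 11.0 CPM in NR LT-HSCs, against 20.6, 22.9 and 24.4 CPM in control LT-HSCs. It had 18.8, 21.5 and 16.1 CPM in NR ST-HSCs, against 23.7, 26.7 and 24.3 CPM in control ST-HSCs. The groups were apart in both cell types, and sample 3 was the lowest in both NR groups. These are the 2 libraries with the most no-feature reads. The log2 difference was -0.54 ± 0.17 in LT-HSCs and -0.40 ± 0.17 in ST-HSCs, and without these 2 libraries it was -0.33 in LT-HSCs and -0.23 in ST-HSCs. The ratio of Dbt to Bckdhb per exon base was 0.432 ± 0.105 in NR LT-HSCs and 0.523 ± 0.001 in control LT-HSCs, and it was 0.617 ± 0.055 in NR ST-HSCs and 0.503 ± 0.037 in control ST-HSCs (SD, n = 3).

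Bckdha (ENSMUSG00000060376, chromosome 7) had 12.9, 13.6 and 9.43 CPM in NR LT-HSCs, against 13.2, 14.9 and 12.4 CPM in control LT-HSCs. It had 15.4, 13.3 and 13.3 CPM in NR ST-HSCs, against 14.8, 14.9 and 14.0 CPM in control ST-HSCs. NR and control libraries overlapped in both cell types. The log2 difference was -0.17 ± 0.14 in LT-HSCs and -0.06 ± 0.13 in ST-HSCs, and in ST-HSCs its sign changed with the setting. The overlapping gene B3gnt8 ran the other way, with 19.2 ± 2.1 CPM in NR LT-HSCs and 14.3 ± 0.6 CPM in control LT-HSCs, and 17.7 ± 0.9 CPM in NR ST-HSCs and 9.70 ± 0.46 CPM in control ST-HSCs (SD, n = 3). Without strand, reads that lie in the shared exon bases cannot be told apart between the 2 genes.

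By count, 6 of the 7 genes had NR libraries wholly below the control libraries in LT-HSCs and 6 of 7 in ST-HSCs, where 15.9% and 20.9% of the 19830 genes tested did. The edgeR call (adjusted p under 0.05) serves here as a cut-off for description, because the change of Pycr1 and Bcat1 was known. By this cut-off, 4 of 7 were lower in LT-HSCs, namely Pycr1, Aldh18a1, Bcat1 and Bcat2, where 7.58% of all genes were. With each library left out in turn this number ran between 2 and 4; it was 2, Pycr1 and Aldh18a1, without control LT-HSC sample 2 or NR LT-HSC sample 1. Among these 6 fits Bcat1 kept its LT-HSC call only without NR LT-HSC sample 2, and it was not called with DESeq2. With the sample number as a block 5 of 7 were lower in LT-HSCs, the added gene being Dbt. In ST-HSCs 5 of 7 were lower, the same 4 and Bckdhb, where 11.1% of all genes were. This number was 4 without any 1 of the 6 ST-HSC libraries, with relative log expression factors, with DESeq2 and with no filter. It was also 4 without the 2 libraries with the most no-feature reads, and Bcat2 was the gene lost each time. None was higher in either cell type, where 2.38% and 5.82% of all genes were. Among the 10473 tested genes at 5 CPM or more, 1466 were called lower for LT-HSCs and 2091 for ST-HSCs, larger shares than among all genes. Of all genes called with NR, 23.9% were higher in LT-HSCs and 34.5% in ST-HSCs, and with relative log expression factors 37.4% and 51.7%. These counts describe the choice of genes and are no test of it. The median log2 difference of the 7 genes was -0.54 in LT-HSCs and -0.70 in ST-HSCs, beside 0.04 and -0.03 over all genes tested, and -0.06 and -0.08 over the 10473 tested genes at 5 CPM or more. The LT-HSC median of the 7 genes was -0.35 without NR LT-HSC sample 3, and -0.33 without both libraries with the most no-feature reads.

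**Figure D3:**
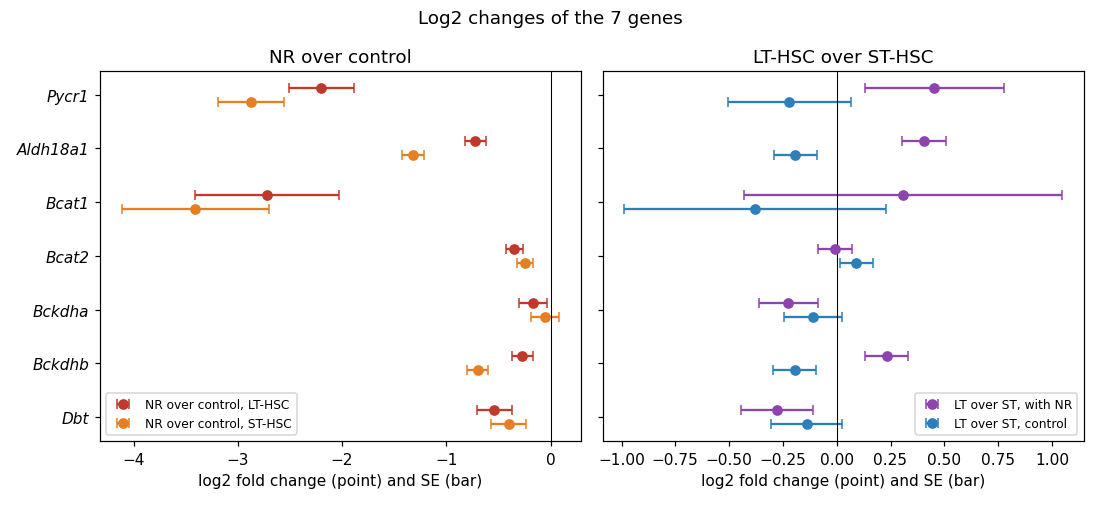
Log2 fold changes (points) with their standard errors (bars) of the 7 genes, for NR over control on the left and for LT-HSCs over ST-HSCs on the right. Pycr1 and Bcat1 lie farthest below 0 on the left, and all values on the right lie between -0.38 and 0.45.

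The NR difference was estimated as more negative in ST-HSCs than in LT-HSCs for 4 genes, of which Pycr1 and Bcat1 had a gap of less than 2 SE. The difference of the log2 changes, ST-HSCs minus LT-HSCs, was -0.60 ± 0.14 for Aldh18a1, -0.43 ± 0.14 for Bckdhb, -0.67 ± 0.43 for Pycr1 and -0.68 ± 0.96 for Bcat1. It was 0.10 ± 0.11 for Bcat2, 0.12 ± 0.19 for Bckdha and 0.14 ± 0.23 for Dbt. The edgeR call passed for 0 of the 7, and for 0.0101% of all genes. The median over the 7 genes was -0.43, and it was -0.067 without NR ST-HSC sample 1, the library in which Pycr1, Aldh18a1 and Bcat1 were lowest.

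LT-HSCs and ST-HSCs can also be compared directly, in control culture and with NR; these 2 comparisons share no library. In control culture 0 of the 7 genes passed edgeR's adjusted p of 0.05, where 5.01% of all genes did. At an unadjusted p under 0.05 the number was 0 with edgeR, 0 with DESeq2 and 2 with limma-voom. The largest log2 difference, LT-HSCs over ST-HSCs, was that of Bcat1 at -0.38 ± 0.61 (edgeR adjusted p = 0.876), and Pycr1 had -0.22 ± 0.28 (edgeR adjusted p = 0.842). For the better measured Aldh18a1 it was -0.19 ± 0.10 (edgeR adjusted p = 0.436), and for Bckdhb -0.20 ± 0.10 (edgeR adjusted p = 0.411). The log2 difference was 0.09 ± 0.08 for Bcat2, -0.11 ± 0.13 for Bckdha and -0.14 ± 0.16 for Dbt, with edgeR adjusted p-values of 0.727, 0.835 and 0.825. Without overlap of the groups, Bcat2 was higher and Pycr1, Aldh18a1, Bcat1 and Bckdhb were lower in LT-HSCs; such separation in either direction held for 24.8% of all genes.

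With NR, Aldh18a1 was higher in LT-HSCs, at 219 ± 18 CPM, than in ST-HSCs, at 166 ± 26 CPM (SD, n = 3 each). The log2 difference was 0.41 ± 0.10 (edgeR adjusted p = 0.0307), and all 3 LT-HSC libraries were above all 3 ST-HSC libraries. It was the only one of the 7 genes to pass in this comparison, where 3.80% of all genes were called higher and 2.27% lower. The call did not hold without NR LT-HSC sample 1 (0.32, edgeR adjusted p = 0.121), NR LT-HSC sample 2 (0.42, 0.0717) or NR ST-HSC sample 1 (0.28, 0.083), or in a fit of these 2 groups alone (0.37, 0.192). Over all alternatives the edgeR, DESeq2 or limma-voom adjusted p lay between 0.00125 and 0.192.

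Bckdhb with NR was also apart, with LT-HSCs above ST-HSCs, but its log2 difference of 0.23 ± 0.10 did not pass (edgeR adjusted p = 0.249). Such separation held for 17.6% of all genes. The difference was 0.45 ± 0.32 for Pycr1, 0.31 ± 0.74 for Bcat1 and -0.01 ± 0.08 for Bcat2, with edgeR adjusted p-values of 0.613, 0.999 and 0.999. It was -0.22 ± 0.14 for Bckdha and -0.28 ± 0.17 for Dbt, with edgeR adjusted p-values of 0.492 and 0.49. Directions of Bcat1 and Bcat2 in this comparison changed when single libraries were left out.

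Across all 12 libraries, Pycr1 and Bcat1 had the most similar profiles among the 7 genes (Pearson r = 0.990 of log2(CPM + 1)). Pycr1 and Aldh18a1 had r = 0.976, and Aldh18a1 and Bcat1 had r = 0.953. Bckdha stood apart from Pycr1 (r = 0.236). These values are descriptions, since the libraries fall into NR and control sets and all points of a gene come from the same 12 libraries. Among 10009 other genes at 5 CPM or more, with predicted genes, clones and pseudogenes left out, those most like Pycr1 were Asns, the asparagine synthetase gene (r = 0.992), Mthfd2, of mitochondrial folate metabolism (r = 0.988), and Slc7a5, a transporter of large neutral amino acids that include leucine (r = 0.985). Those most like Aldh18a1 were Susd1 (r = 0.992) and the transfer RNA synthetase genes Iars for isoleucine and Aars for alanine (r = 0.988 each). Bcat1 was most like Hyi (r = 0.988), Hsd17b1 and Hadha, a subunit gene of the mitochondrial trifunctional protein of fatty acid oxidation (r = 0.979 each). Bcat2 was most like the respiratory chain gene Cox4i1 (r = 0.988), Mmachc, of cobalamin handling (r = 0.981), and the elongation factor gene Eef1d (r = 0.980). For Bckdhb these were Srek1, Lsm2 and Mtbp (r = 0.966, 0.957 and 0.950), for Dbt Rpf1, Rtca and Mrpl48 (r = 0.976, 0.958 and 0.953), and for Bckdha Kansl2, Arpc2 and Psen2 (r = 0.930, 0.918 and 0.912). With the share of no-feature reads, r was -0.12 for Pycr1, -0.22 for Aldh18a1 and -0.09 for Bcat1, but -0.59 for Bcat2, -0.66 for Bckdha and -0.55 for Dbt.

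The remaining genes of both pathways were followed as a list of 43 genes, of which 42 were tested. The list was chosen by function, but with earlier results of these data known, so its calls are not independent of them. With NR, 11 fell and 0 rose in LT-HSCs, and 15 fell and 1 rose in ST-HSCs. Of all genes, 7.58% and 11.1% were called lower, and 2.38% and 5.82% higher. Among the 10473 tested genes at 5 CPM or more, 1466 and 2091 were called lower, which are larger shares. Of the listed genes, 36 had a mean of at least 5 CPM, so the all-gene shares are a low yardstick here. The same holds for the leucine, valine, propionyl-CoA and sister dehydrogenase counts below. The median log2 change of the 42 genes was -0.15 in LT-HSCs and -0.16 in ST-HSCs. In LT-HSCs the number that fell was 4 to 7 when any 1 of the 6 libraries was left out. It was 6 without the 2 libraries with the most no-feature reads. In ST-HSCs it was 6 without NR ST-HSC sample 3, and 6 without that library and NR LT-HSC sample 3. With the sample number as a block, 15 fell in LT-HSCs; the added genes, chosen after their values were seen, were Dld, Pccb, Pdhb and Ogdh, with edgeR adjusted p-values of 0.0391, 0.0126, 0.0443 and 0.023.

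Pycrl, also named Pycr3, encodes another pyrroline-5-carboxylate reductase. Its level averaged 56.4 ± 6.1 CPM in NR LT-HSCs and 75.3 ± 4.4 CPM in control LT-HSCs, and it fell by 0.42 ± 0.08 on the log2 scale (edgeR adjusted p = 0.00588). In ST-HSCs its log2 change was -0.17 ± 0.08 (edgeR adjusted p = 0.193). Of the 8 genes that feed proline synthesis, Pycrl was the 1 that fell in LT-HSCs, where 7.58% of all genes did. In ST-HSCs 0 of the 8 fell, where 11.1% of all genes did. Prodh, the gene of proline dehydrogenase, which starts proline breakdown, averaged 64.5 ± 4.8 CPM in NR LT-HSCs and 98.1 ± 6.7 CPM in control LT-HSCs. It averaged 68.9 ± 3.2 CPM in NR ST-HSCs and 111 ± 5 CPM in control ST-HSCs. Prodh fell by 0.61 ± 0.08 in LT-HSCs (edgeR adjusted p = 0.000507) and by 0.69 ± 0.08 in ST-HSCs (edgeR adjusted p = 6.78e-05) on the log2 scale.

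Around the dehydrogenase, Bckdk, whose kinase inactivates the complex, fell by 0.28 ± 0.07 on the log2 scale in both cell types (edgeR adjusted p = 0.0221 in LT-HSCs and 0.0139 in ST-HSCs). The LT-HSC call was lost without any 1 library except control LT-HSC sample 1, and the ST-HSC call without control ST-HSC sample 1 or NR ST-HSC sample 3. Ppm1k, the gene of the phosphatase that reactivates the complex, had log2 changes of -0.12 in LT-HSCs and -0.07 in ST-HSCs (edgeR adjusted p = 0.689 and 0.905). Dld, whose protein is the third component shared with other dehydrogenases, had -0.21 and -0.11 (edgeR adjusted p = 0.111 and 0.395). Slc25a44, the mitochondrial carrier of branched-chain amino acids, had -0.07 and 0.16 (edgeR adjusted p = 0.761 and 0.363). Among 6 subunit genes of the sister dehydrogenases for pyruvate and 2-oxoglutarate, 2 were called lower in LT-HSCs and 4 were in ST-HSCs, where 7.58% and 11.1% of all genes were. Of these, named here after their values were seen, Dlst lost its LT-HSC call without any 1 of the 6 libraries. The Dlat call in LT-HSCs was lost without any of 4 of the 6, and in ST-HSCs the Pdha1 call was lost without any of 4 of the 6 and with relative log expression or upper-quartile factors.

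Downstream of the complex, 3 of the 6 genes listed for leucine were called lower in LT-HSCs and 4 of 6 were in ST-HSCs. Of all genes, 7.58% and 11.1% were. The called genes include Oxct1, which acts on ketone bodies. Mccc1 and Mccc2 encode the subunits of methylcrotonyl-CoA carboxylase. Mccc2 averaged 23.7 ± 5.1 CPM in NR LT-HSCs and 39.4 ± 1.8 CPM in control LT-HSCs, and 23.5 ± 1.7 CPM in NR ST-HSCs and 43.1 ± 3.8 CPM in control ST-HSCs. It fell by 0.73 ± 0.14 in LT-HSCs and by 0.88 ± 0.14 in ST-HSCs on the log2 scale (edgeR adjusted p = 0.00449 and 0.000754). Mccc1 fell by 0.50 ± 0.11 and by 0.57 ± 0.11 (edgeR adjusted p = 0.0125 and 0.00341), and its LT-HSC call was lost without control LT-HSC sample 1, NR LT-HSC sample 1 or NR LT-HSC sample 2. Oxct1, whose enzyme activates ketone bodies, averaged 187 ± 18 CPM in NR LT-HSCs and 287 ± 19 CPM in control LT-HSCs, and 154 ± 12 CPM in NR ST-HSCs and 296 ± 9 CPM in control ST-HSCs. It fell by 0.62 ± 0.08 and by 0.94 ± 0.08 on the log2 scale (edgeR adjusted p = 0.000597 and 9.6e-06).

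On the other branches, 0 of 5 valine genes were called lower in LT-HSCs and 1 of 5 was in ST-HSCs, where 7.58% and 11.1% of all genes were. The 1 call, of Echs1, also named after its values were seen, was lost without any of 4 of the 6 libraries and under 6 of 10 other settings, DESeq2 and limma-voom among them. Of 4 genes that process propionyl-CoA, an end product of valine and isoleucine, 1 was called lower in LT-HSCs and 2 were in ST-HSCs. Pccb, a subunit gene of propionyl-CoA carboxylase, fell by 0.52 ± 0.13 in ST-HSCs on the log2 scale (edgeR adjusted p = 0.0129), a call lost without control ST-HSC sample 3 or NR ST-HSC sample 1. Hsd17b10, whose enzyme acts in isoleucine breakdown and whose protein is also a subunit of mitochondrial RNase P, was the gene that rose: it averaged 170 ± 23 CPM in NR ST-HSCs and 125 ± 2 CPM in control ST-HSCs, a log2 change of 0.45 ± 0.09 (edgeR adjusted p = 0.00496). Between cell types in control culture it averaged 165 ± 9 CPM in LT-HSCs and 125 ± 2 CPM in ST-HSCs, a log2 difference of 0.40 ± 0.09 (edgeR adjusted p = 0.023), which was lost without any 1 library except control LT-HSC sample 1. It was the 1 gene of the 42 to pass there, where 5.01% of all genes did.

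With NR, 0 of the 42 passed edgeR's adjusted p of 0.05 between LT-HSCs and ST-HSCs. Of all genes, 3.80% were called higher in LT-HSCs and 2.27% lower. At an unadjusted p under 0.05 there were 4 with edgeR, 6 with DESeq2 and 4 with limma-voom, and DESeq2 called 3 after adjustment. With the sample number as a block, Oxct1 was higher in LT-HSCs by 0.28 ± 0.07 on the log2 scale (edgeR adjusted p = 0.0124). For the difference of the NR effects between cell types, 0 of the 42 passed edgeR's adjusted p of 0.05, where 0.0101% of all genes did. This count thus does not show that the NR effects were alike. At an unadjusted p under 0.05 there were 2 in edgeR, 4 in DESeq2 and 5 in limma-voom.

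**Figure D4:**
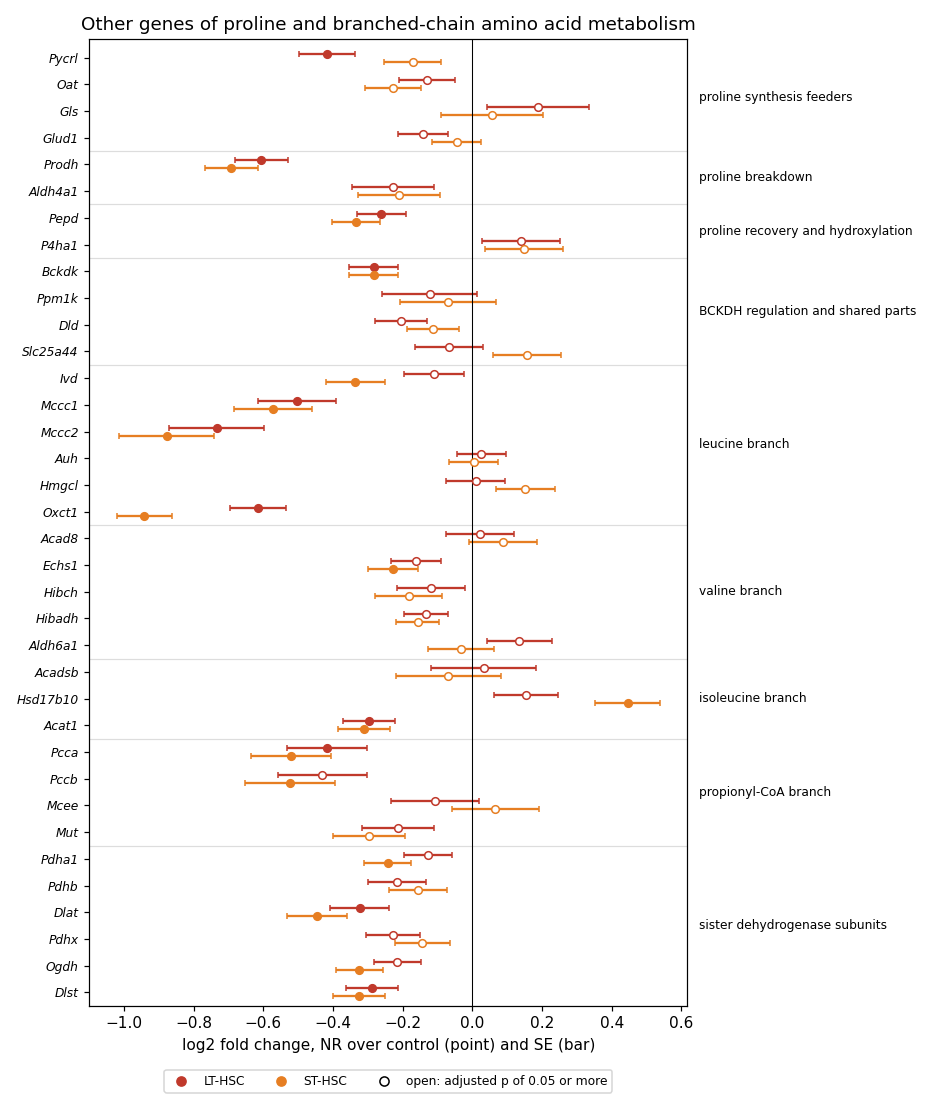
Log2 fold changes, NR over control, with standard errors for 36 of the listed genes, each with a mean of at least 5 CPM, ordered by role; filled points passed edgeR's adjusted p of 0.05. Mccc2, Oxct1 and Prodh lie farthest to the left, and Hsd17b10 in ST-HSCs is the filled point to the right of 0.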

How the data were processed

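The deposited table holds read counts per Ensembl gene, 1 column for each of 12 libraries; 0 columns were not used. Per the labels' protocols, SMART-seq v4 cDNA (2.5 ng input RNA) was turned into Nextera XT libraries. Per the submitters' processing notes, the tools were FastQC 0.11.2, STAR 2.5.0b and HTSeq 0.6.1. Genome build, annotation release and strand setting: not given in the sources used here. Symbols and exon lengths came from GENCODE M21, in which 191 of 53465 identifiers had no symbol, and promoter windows from RefSeq.

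Reads that HTSeq assigned to no gene (8.69% to 28.5% no-feature, 3.30% to 4.38% ambiguous) were kept out. edgeR 4.0.16 (quasi-likelihood test, two-sided, TMM factors, R 4.3.3) was fitted to all 12 samples with 4 group means after filterByExpr (minimum count 10, total 15), which kept 19830 genes; p-values were adjusted by Benjamini-Hochberg over all of them. Residual degrees of freedom were 8, and the biological coefficient of variation 0.402. Replicate counts differed by more than sampling noise. CPM is given with its SD, log2 changes with their SE.

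The genes and lists were chosen with earlier results of these data known. Other pathway genes were named if among the 5 largest rises or falls past adjusted p 0.05 at 5 CPM or more, and Pycrl, Bckdk, Ppm1k, Dld and Slc25a44 in any case; 1 listed gene is not reported here by name; the 3 most similar genes were named per gene by Pearson r.

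Alternatives were DESeq2 1.42.0, factors by upper quartile or relative log expression, limma-voom (limma 3.58.1) with quality weights, no filter, and a mean of at least 5 CPM. Others were the 2 groups alone, a replicate block, each library left out, the 2 libraries with over 20% no-feature reads left out, and that share as a covariate. Same-numbered samples deviated together between NR and control LT-HSCs (r = 0.302 to 0.555) and between NR LT-HSCs and NR ST-HSCs (r = 0.358 to 0.767). The numbers were taken, as an assumption, to pair these groups. They were not taken to pair the NR and control ST-HSCs (lowest r = -0.137) or the control LT-HSCs and control ST-HSCs (lowest r = -0.0961). Sample 3 also held the most no-feature reads in NR LT-HSCs (28.5%), NR ST-HSCs (26.2%) and control LT-HSCs (16.0%). The part of this share in r was not tested. The main fit used no pairing. The replicate block was a single term for the sample number over all 12 libraries, so it also joined the groups not taken as paired.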

Additional observations from a re-analysis of the deposited data

How the results depend on the processing

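Leaving out each library in turn moved several counts. The 7 genes called lower with NR in LT-HSCs then numbered 2 to 4 (4 with all libraries), and their median difference of NR effects, ST-HSCs minus LT-HSCs, ran from -0.49 to -0.067. The other pathway genes called lower with NR numbered 4 to 7 in LT-HSCs (11 with all) and 6 to 16 in ST-HSCs (15 with all). Between LT-HSCs and ST-HSCs, pathway genes called higher numbered 0 to 1 in control culture and 0 to 2 with NR, and of the 7 genes 0 to 1 were called higher with NR, with a median of -0.073 to 0.25. Without any filter, 6 pathway genes were called lower in LT-HSCs and 7 were in ST-HSCs. Without the 2 libraries with the most no-feature reads these numbers were 6 and 6. Genes that rose numbered 1 in LT-HSCs and 3 in ST-HSCs with the filter at 5 CPM, and 2 in ST-HSCs with upper-quartile factors and with DESeq2 (0 and 1 in the TMM fit). DESeq2 called 1 of the 7 genes for a larger fall in ST-HSCs. For LT-HSCs over ST-HSCs with NR, pathway genes called higher numbered 1 with relative log expression factors, the replicate block or the covariate, and 2 with upper-quartile factors, DESeq2 or the 5 CPM filter; DESeq2 also called 1 lower, and the fit of 2 groups called 0 of the 7 genes higher. In that comparison Bcat1 turned to -0.11 without NR LT-HSC sample 2 and to -0.31 without NR ST-HSC sample 1 (range -0.31 to 1.78), and Bcat2 to 0.060 without NR LT-HSC sample 3, 0.017 without NR ST-HSC sample 1 and 0.023 without NR ST-HSC sample 2 (range -0.088 to 0.060). The causes were not tested. Among all genes called with NR, 23.9% were higher in LT-HSCs and 34.5% in ST-HSCs, against 37.4% and 51.7% with relative log expression factors, 40.1% and 50.7% with DESeq2, and 44.0% and 49.7% with the 5 CPM filter. With the replicate block, 5 of the 7 genes and 15 pathway genes were lower in LT-HSCs, and 5 and 17 in ST-HSCs, where the samples share only a number. The Bcat1 level with NR rests on few reads, at most 87 counts in a library.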
